A study of Homo sapiens with 6 samples.

Results

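The genes described here are 35 interferon-stimulated genes, measured by poly(A) RNA-seq in cells labelled HCT116, a human colorectal carcinoma line. They were chosen by gene symbol as known members of the interferon response, and all 35 were found among the 24154 genes of the deposited table. Both groups had received an siRNA for 48 h: a negative control siRNA (NC, n = 3 libraries) or an siRNA against CPT2 (siCPT2, n = 3 libraries), a gene of mitochondrial fatty acid oxidation. No untreated cells were part of the comparison, so the levels in NC are levels in cells that were themselves given an siRNA. The labels do not say whether replicates came from separate cultures, so the spread behind every p-value is that between libraries and may be technical. In bulk RNA, fewer cells that use a gene and less of its RNA per cell cannot be told apart.

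Type I interferons act through a receptor on the cell surface whose kinases, JAK1 and TYK2, activate STAT proteins, STAT2 among them. With IRF9 these form a complex that binds interferon-stimulated response elements in promoters and switches on antiviral genes. Double-stranded RNA in the cytosol can be sensed by RIG-I-like receptors and the kinase PKR, several of which are themselves interferon-stimulated genes. Many of these genes also keep a basal level without added interferon.

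Many of the promoters hold a match to the core of the response element, and 5 are printed as examples. The core searched was GAAA, any 2 bases and GAAA again, on either strand and with overlapping matches counted. It was searched in RefSeq promoters (GRCh38.p14) that run from 250 bases before to 50 bases after the transcription start. Of the 35 genes, 28 had a promoter in the RefSeq table, and IFIT2, DHX58, OAS2, OASL, MX2, IRF7 and IFITM2 did not. At least 1 match was found in 21 of the 28 genes (75.0%), against 4.38% of all 27305 genes in that table. Counted by promoter, 25 of 36 promoters of these genes held a match, against 3.57% of all 35116 promoters. IFI35, DDX58, OAS1, STAT2, IRF1, IRF9 and SP100 had no match to these letters in the window. In the sequences below, read 5′ to 3′ on the gene's strand, capitals mark the matches.
BST2, chr19:17405581-17405880 (minus strand): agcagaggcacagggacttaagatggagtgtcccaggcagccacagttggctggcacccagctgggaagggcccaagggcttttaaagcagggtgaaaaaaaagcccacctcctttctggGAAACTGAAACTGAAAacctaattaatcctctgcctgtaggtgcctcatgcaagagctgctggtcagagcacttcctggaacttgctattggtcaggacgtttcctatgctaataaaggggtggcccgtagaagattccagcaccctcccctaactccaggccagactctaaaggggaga
IFITM3, chr11:320811-321110 (minus strand): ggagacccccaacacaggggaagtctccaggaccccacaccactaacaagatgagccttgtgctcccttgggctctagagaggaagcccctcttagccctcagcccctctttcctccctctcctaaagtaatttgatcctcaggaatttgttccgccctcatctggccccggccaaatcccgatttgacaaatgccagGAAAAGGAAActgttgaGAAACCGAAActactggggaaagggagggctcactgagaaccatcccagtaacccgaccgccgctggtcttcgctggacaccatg
ISG15, chr1:1013247-1013546 (plus strand): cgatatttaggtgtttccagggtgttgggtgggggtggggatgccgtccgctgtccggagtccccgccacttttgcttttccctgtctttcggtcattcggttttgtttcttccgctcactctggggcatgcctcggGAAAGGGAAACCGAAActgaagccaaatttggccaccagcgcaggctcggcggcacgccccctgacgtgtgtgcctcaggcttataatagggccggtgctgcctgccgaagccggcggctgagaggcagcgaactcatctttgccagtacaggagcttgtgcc
IFIT3, chr10:89327747-89328046 (plus strand): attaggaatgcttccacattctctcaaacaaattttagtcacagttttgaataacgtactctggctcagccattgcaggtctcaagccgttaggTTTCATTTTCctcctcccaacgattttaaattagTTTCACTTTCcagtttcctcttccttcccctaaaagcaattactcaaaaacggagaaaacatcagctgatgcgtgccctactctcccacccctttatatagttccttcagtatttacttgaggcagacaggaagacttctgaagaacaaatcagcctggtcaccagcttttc
DTX3L, chr3:122564088-122564387 (plus strand): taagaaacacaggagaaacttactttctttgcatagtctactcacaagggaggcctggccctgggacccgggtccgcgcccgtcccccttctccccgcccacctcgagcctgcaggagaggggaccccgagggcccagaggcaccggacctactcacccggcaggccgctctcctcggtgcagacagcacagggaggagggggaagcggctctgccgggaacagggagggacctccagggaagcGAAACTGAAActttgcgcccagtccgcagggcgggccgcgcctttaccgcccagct

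In BST2 and ISG15 the capitals are 2 matches that overlap by the 4 bases of the shared GAAA, the first starting 130 bases before the start in BST2 and 113 bases before it in ISG15. IFITM3 held separate matches that begin 52 and 35 bases before its start. The first promoter of IFIT3 had its 2 matches on the opposite strand, 156 and 122 bases before the start. The match in DTX3L (chr3:122564332-122564341) is the same stretch that was matched in the second promoter of PARP9, which is transcribed in the other direction from there. In the comparison of siCPT2 with NC below, 7 of the 21 genes with a match and 4 of the 7 without had a log2 fold change above 0, against 50.7% of all tested genes. That share was 22.8% of tested genes with transcripts under 50% GC and 78.3% of those at 50% or more. The genes with and without a match were not matched for GC content, and a part of the element in the differences was not tested.

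**Figure D1:**
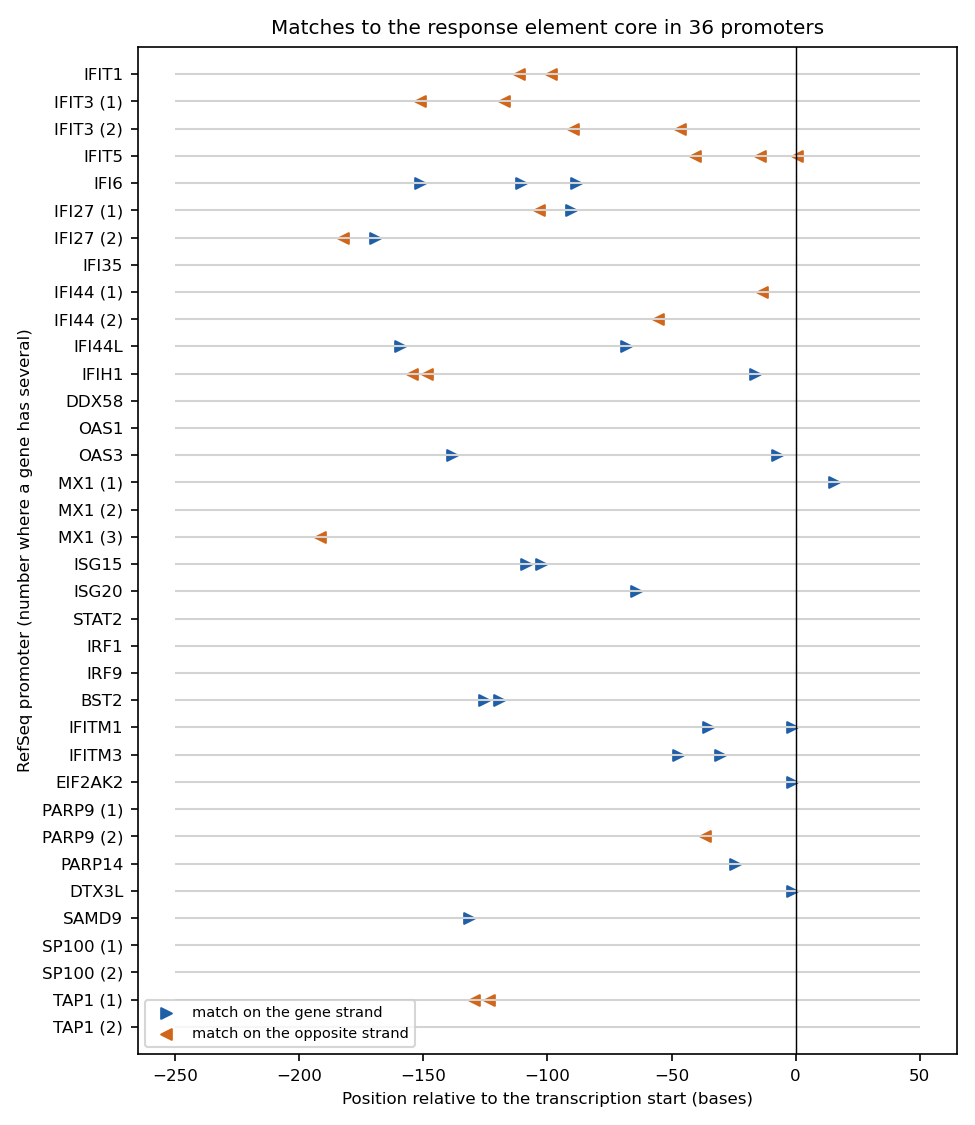
Positions of matches to the response element core in 36 RefSeq promoters of 28 genes, in bases from the transcription start. Each grey line is a promoter and each triangle a match, pointing right where it reads on the gene's strand. In 24 of the 25 promoters with a match the matches begin before the start, and in MX1 promoter 1 the match begins after it.

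Libraries held 28353790 to 29449380 counts. Replicate 1 of siCPT2 stood apart on the first principal component (53.2% of the variance), with a score of 76.6 against -44.6 to 16.03 in the others, and 16.99% of its counts came from mitochondrial DNA, against 8.99% to 15.6%. The targeted transcript, CPT2, had 23.6, 28.5 and 29.1 CPM in NC and 19.4, 21.3 and 18.96 CPM in siCPT2, where CPM are counts scaled to a common library size by the TMM method. The groups did not overlap, and the difference did not pass (log2 fold change -0.44, SE 0.17, edgeR adjusted p = 0.338); it was 0.010 with offsets that remove each library's trend on transcript GC content and length, -0.44 without siCPT2 replicate 1 and -0.27 with both. The epithelial keratins KRT8 (995 ± 53.1 CPM in NC, SD, n = 3) and KRT18 (690.03 ± 77.2 CPM) were high. EPCAM had 2.93 ± 0.243 CPM and CDH1 2.41 ± 0.428 CPM in NC, KRT19, KRT20 and VIL1 had means under 0.5 CPM, and the intestinal factors CDX1 and CDX2 had 0 counts in all 6 libraries. Of 9 markers of the labelled line only the 2 keratins passed 5 CPM, and the identity of the line was not tested. Of 9 leukocyte markers, MS4A1 and LYZ had 0 counts in all libraries, and the summed level was 21.8 to 23.3 CPM in NC and 30.3 to 32.2 CPM in siCPT2, most of it CD68. The 6 fibroblast markers summed to 61.4 to 80.5 CPM in NC and 79.6 to 131.6 CPM in siCPT2, mostly COL1A1, with LUM at 0 counts. The 3 endothelial markers summed to 72.8 to 89.3 CPM in NC and 53.6 to 70.2 CPM in siCPT2, mostly CDH5. What part these markers have in the results below was not tested.

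Most of the genes were expressed in cells given the control siRNA. In NC, 32 of 35 had a mean of at least 1 CPM, against 61.0% of the 19974 Ensembl genes of the table, and the exceptions were OAS2 (0.552 ± 0.0750 CPM, SD, n = 3), MX2 (0.671 ± 0.138 CPM) and IFI27 (0.890 ± 0.297 CPM). Levels of different genes are compared here in the deposited FPKM, which are per transcript length. The highest was BST2, also called tetherin, which holds budding virus at the cell surface, at 239 ± 37.7 FPKM in NC (SD, n = 3), within the top 0.836% of all genes. IFITM3 (233 ± 38.2 FPKM) and IFITM2 (127 ± 11.02 FPKM), which block the fusion of viruses with cell membranes, followed, and BST2 and IFITM3 did not differ beyond their spread. The next were IFITM1 (47.7 ± 5.65 FPKM), ISG15 (36.4 ± 6.57 FPKM), TAP1 (33.4 ± 1.48 FPKM), OAS1 (33.3 ± 1.01 FPKM) and IFI6 (24.6 ± 5.70 FPKM), and the values of ISG15, TAP1 and OAS1 lay within each other's spread. The RNA sensors were lower, with 1.54 ± 0.287 FPKM for DDX58, 2.71 ± 0.246 FPKM for IFIH1 and 3.46 ± 0.484 FPKM for DHX58. OAS2, IFI44L and MX2 were lowest, at 0.160, 0.195 and 0.213 FPKM.

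**Figure D2:**
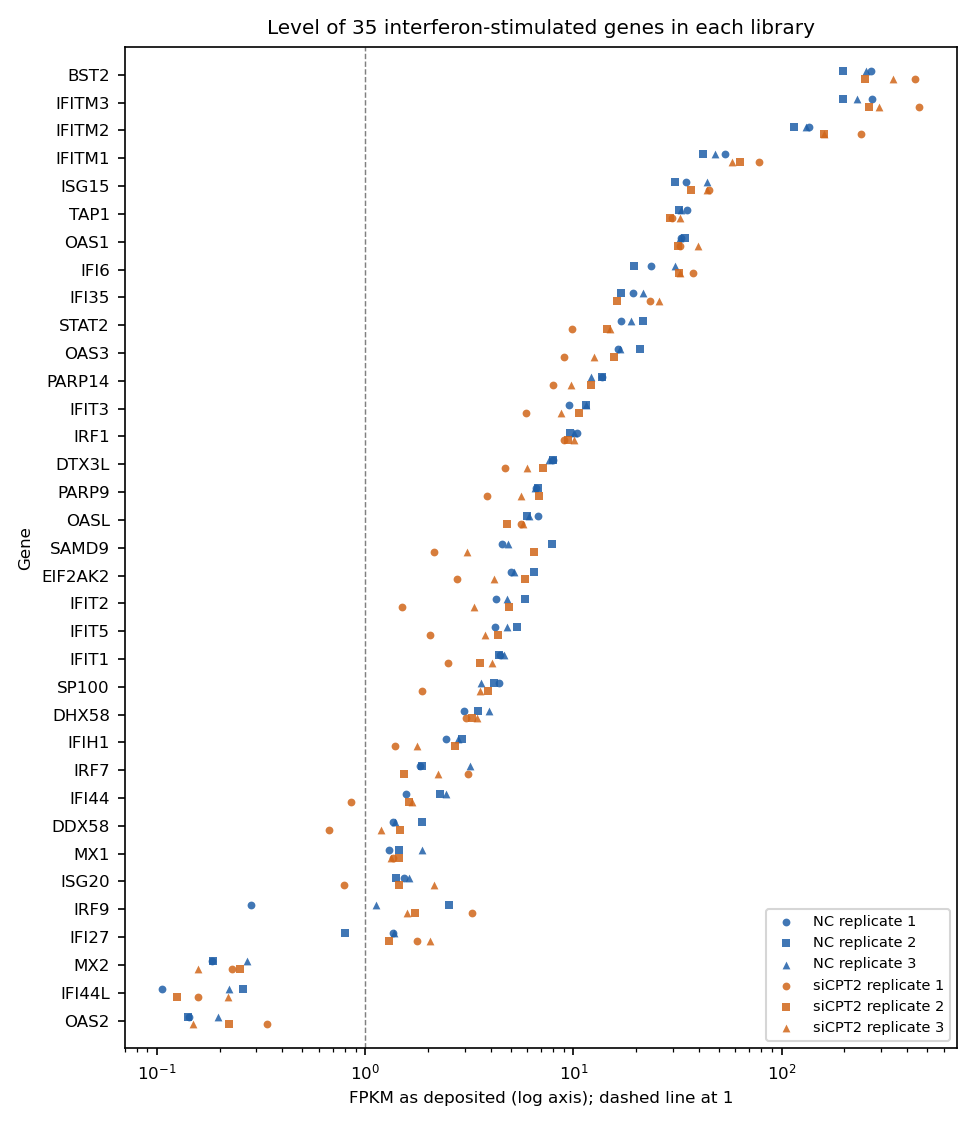
Deposited FPKM of the 35 genes in each of the 6 libraries on a log axis, ordered by the NC mean, with NC in blue, siCPT2 in orange and a symbol for each replicate. The means in NC run from 0.160 FPKM for OAS2 to 239 FPKM for BST2, and only OAS2, IFI44L and MX2 have an NC mean under 1 FPKM.

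Between siCPT2 and NC, no interferon-stimulated gene passed the unpaired test over all genes. By edgeR's quasi-likelihood test 0 of the 35 genes had an adjusted p under 0.05, where 0.0131% of all 15302 genes tested did. DESeq2 and limma-voom also called 0 (backgrounds of 0.111% and 0.00654%). With the replicate number as a block in edgeR, BST2, IFITM2 and IFITM3 passed, as did 4.14% of all genes. With the block and the GC and length offsets, OAS3 and STAT2 passed instead, as did 4.66% of all genes. Whether the libraries are paired was not settled. On the log2 scale the median fold change of siCPT2 over NC was -0.0052, with 17 genes above 0 and 18 below, against a median of 0.0083 and 50.7% above 0 over all genes tested. At an unadjusted p under 0.05 there were 6 genes (17.1%), against 14.5% of all genes: BST2, IFITM1, IFITM2, IFITM3 and IFI6 were higher in siCPT2 (background 9.18%) and STAT2 was lower (background 5.29%). That number was 4 without siCPT2 replicate 1 (background 10.1%), 2 without NC replicate 2 (background 3.23%) and 16 without siCPT2 replicate 2 (background 35.9%). The 3 siCPT2 values lay outside the 3 NC values in 7 genes (20.0%), against 24.4% of all genes. IFI6, IFITM1 and IFITM2 had every siCPT2 library above every NC library, and STAT2, OAS3, IFIT1 and DTX3L had every siCPT2 library below (background 12.2% in each direction). In the authors' deposited table, where 33 of the genes had a p-value, 2 were called up, IFITM1 and IFITM2 (background 2.77%), and 0 down (background 1.38%), on unadjusted p-values.

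**Figure D3:**
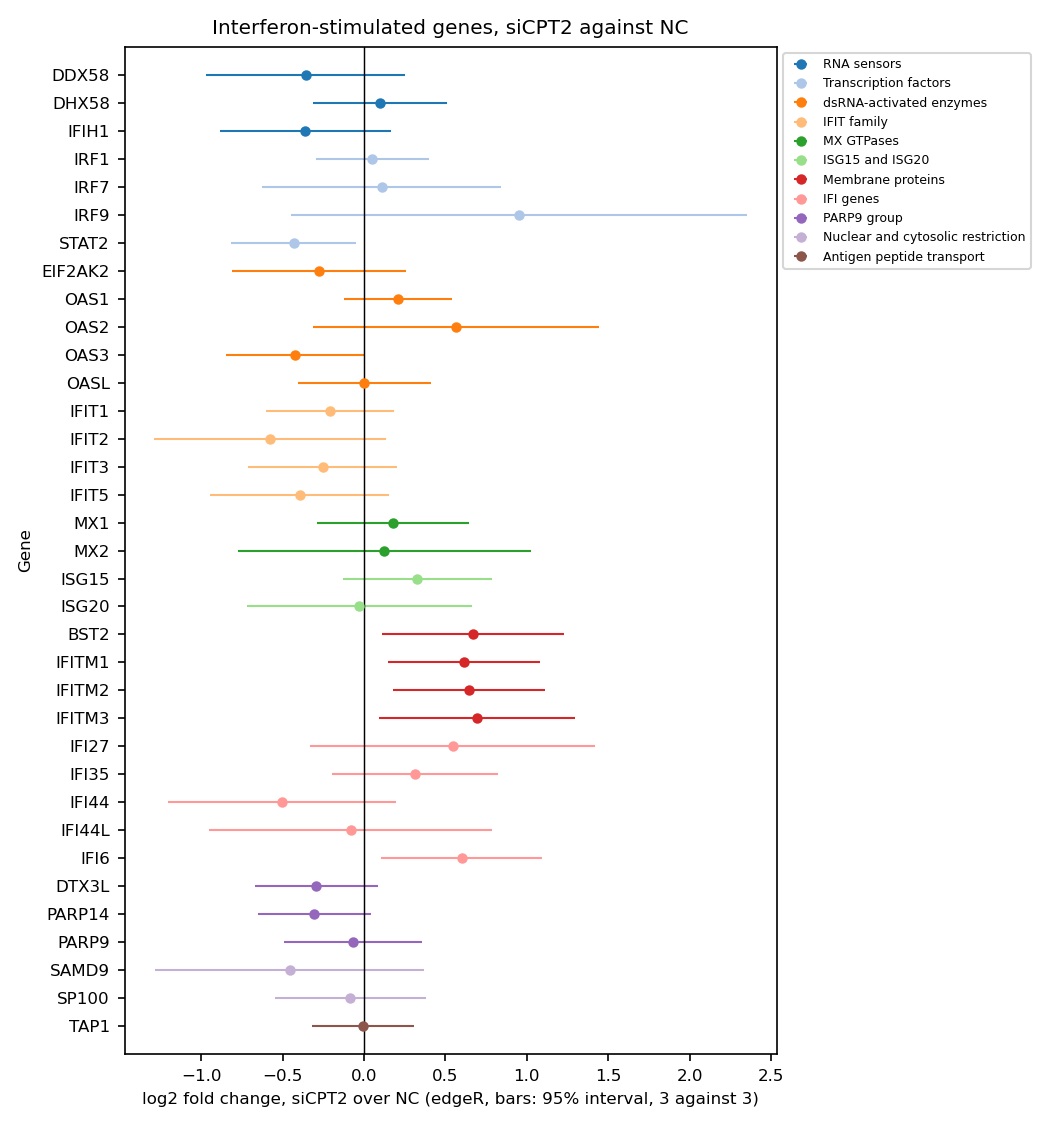
Log2 fold change of each gene, siCPT2 over NC, from the edgeR fit with its 95% interval, grouped and coloured by role. The intervals of BST2, IFITM1, IFITM2, IFITM3 and IFI6 lie above 0 and that of STAT2 below 0, before adjustment over all genes, and those of the other 29 genes cover 0.

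The membrane proteins BST2 and IFITM1 to IFITM3 had the highest FPKM of the 35 genes, and all 4 had an unadjusted p under 0.05. In NC replicates 1, 2 and 3 they made up 44.3%, 35.1% and 41.4% of the summed CPM of the 35 genes, and in siCPT2 replicates 1, 2 and 3 they made up 64.0%, 45.1% and 51.0%. BST2 had 282, 199.7 and 258 CPM in NC and 539, 270.1 and 368 CPM in siCPT2, in the order of the replicate numbers. The value of siCPT2 replicate 2 lay within the controls, and replicate 1 was the highest. The fitted log2 difference was 0.67 (SE 0.25, a fold of 1.59, edgeR adjusted p = 0.338). It was 0.36 without siCPT2 replicate 1, 0.20 with the GC and length offsets and 0.072 with both changes.

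IFITM3 had 225, 159 and 185 CPM in NC and 448, 225 and 247 CPM in siCPT2, and to 3 digits the highest control equalled the lowest siCPT2 library. The log2 difference was 0.69 (SE 0.27), and it was 0.31 without siCPT2 replicate 1, 0.20 with the offsets and 0.025 with both. IFITM2 had 119.7, 96.9 and 113 CPM in NC and 229, 143 and 144 CPM in siCPT2, and the groups did not overlap. Its log2 difference was 0.65 (SE 0.21), and it was 0.38, 0.22 and 0.12 under the same changes. IFITM1 had 46.9, 35.9 and 41.02 CPM in NC and 80.5, 57.2 and 51.6 CPM in siCPT2, again without overlap. Here the log2 difference was 0.61 (SE 0.21), and 0.39, 0.27 and 0.18 under the same changes. The edgeR adjusted p was 0.338 for each of the 3. IFITM1 and IFITM2 share 351 exon bases on the same strand of chromosome 11, and their reads could be split between them. Their summed counts gave a log2 difference of 0.64 (SE 0.20, edgeR adjusted p = 0.338).

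Among the genes named IFI, which are not all of the same family by sequence, IFI6 had the smallest p. It encodes a protein of mitochondria and endoplasmic reticulum. It had 20.5, 16.3 and 25.9 CPM in NC and 37.8, 28.5 and 28.7 CPM in siCPT2, and every siCPT2 library was above every control. The log2 difference was 0.60 (SE 0.22, edgeR adjusted p = 0.338), 0.44 without siCPT2 replicate 1 and 0.18 with the offsets. IFI35 had a log2 fold change of 0.31 (SE 0.22) as counted and -0.16 with the offsets, and IFI27 had 0.54 (SE 0.39). IFI44 had -0.50 (SE 0.31), and IFI44L -0.083 (SE 0.38) as counted and 0.47 with the offsets. Without siCPT2 replicate 1 IFI35 had 0.17, IFI44 -0.28 and IFI44L -0.18. The groups of these 4 overlapped, and IFI27 and IFI44L had only 17 to 42 counts in a library.

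The ubiquitin-like modifier ISG15 had 23.2, 20.1 and 28.5 CPM in NC and 35.2, 25.2 and 29.8 CPM in siCPT2, with overlap. As counted, the log2 difference was 0.33 (SE 0.20, edgeR adjusted p = 0.388). It was 0.19 without siCPT2 replicate 1 and had the other sign, -0.27, with the GC and length offsets. ISG20, an RNA exonuclease, had a log2 fold change of -0.028 (SE 0.30), and 0.20 without siCPT2 replicate 1. The antiviral GTPases MX1 and MX2 had 0.18 (SE 0.21) and 0.13 (SE 0.40) as counted, 0.11 and -0.020 without siCPT2 replicate 1, and -0.086 and -0.001 on log2(FPKM + 1). All 4 had overlapping groups.

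The transcription factors did not share a direction. STAT2, a subunit of the complex that answers type I interferon, had 55.9, 68.2 and 60.4 CPM in NC and 38.3, 48.5 and 49.9 CPM in siCPT2, so that all siCPT2 libraries were below all controls. The fitted log2 difference was -0.43 (SE 0.17, a fold of 0.741, edgeR adjusted p = 0.338). It was -0.33 without siCPT2 replicate 1, -0.44 with the GC and length offsets and -0.35 with both. IRF1, a factor that also answers to interferon gamma, had 34.9, 34.2 and 35.1 CPM in NC and 38.7, 32.4 and 36.9 CPM in siCPT2, and its values overlapped (log2 fold change 0.052, SE 0.15, 95% interval -0.30 to 0.40). IRF7, an inducer of interferon alpha genes, had 3.80, 3.53 and 6.12 CPM in NC and 6.52, 3.24 and 4.76 CPM in siCPT2 and overlapped as well. Its log2 fold change was 0.11 (SE 0.32) as counted, -0.17 without siCPT2 replicate 1 and -0.48 with the offsets.

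IRF9, the DNA-binding partner of STAT2, had the largest fitted difference of the 35 genes and the largest SE. It had 0.533, 4.02 and 1.79 CPM in NC and 6.48, 3.10 and 2.74 CPM in siCPT2, and the groups overlapped (log2 fold change 0.95, SE 0.62, edgeR adjusted p = 0.401). Over the alternatives the log2 fold change ran from 0.019 to 1.81 and the edgeR, DESeq2 or limma adjusted p from 0.265 to 0.971. The lowest fold change and the highest adjusted p came from counts summed with an overlapping gene model, given below. For IRF9 alone the log2 fold change was 0.45 without siCPT2 replicate 1, 0.59 with the offsets and 0.23 with both. Of the IRF9 exon bases, 48.4% also belong to AL136295.5, a gene model on the same strand of chromosome 14 (24151218 to 24167402, GRCh38) that spans IRF9 (24161053 to 24166565). IRF9 took 2.66%, 40.8% and 11.1% of the counts of the pair in NC replicates 1, 2 and 3 and 42.4%, 22.1% and 15.9% in siCPT2 replicates 1, 2 and 3. Summed, the pair had 20.02, 9.85 and 16.1 CPM in NC and 15.3, 14.01 and 17.2 CPM in siCPT2, and the log2 difference was 0.019 (SE 0.26, edgeR adjusted p = 0.971).

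The RNA sensors and the enzymes activated by double-stranded RNA gave no common direction. DDX58 (RIG-I) had a log2 fold change of -0.36 (SE 0.27), IFIH1 (MDA5) -0.36 (SE 0.23) and DHX58 (LGP2) 0.10 (SE 0.18), all with overlapping groups. Without siCPT2 replicate 1 they had -0.16, -0.24 and 0.10, and with the offsets -0.032, -0.14 and -0.18. EIF2AK2, which encodes the kinase PKR, had -0.28 (SE 0.23) as counted, -0.10 without siCPT2 replicate 1 and 0.19 with the offsets. OAS3, which makes the oligoadenylates that activate RNase L, had 110.1, 138 and 111 CPM in NC and 71.2, 109 and 87.3 CPM in siCPT2. All siCPT2 values lay below the controls, replicate 2 by a narrow margin. The log2 difference was -0.42 (SE 0.19, edgeR adjusted p = 0.338), -0.29 without siCPT2 replicate 1, -0.39 with the offsets and -0.23 with both. OAS1, an enzyme of the same kind, had 54.9, 56.3 and 53.1 CPM in NC and 65.01, 56.2 and 68.7 CPM in siCPT2. It overlapped through siCPT2 replicate 2 (log2 fold change 0.21, SE 0.15, edgeR adjusted p = 0.430). OAS2 had 0.56 (SE 0.39) on 15 to 26 counts, and OASL, a relative without that enzyme activity, 0.0023 (SE 0.18).

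All 4 IFIT genes, of a family with members that bind foreign RNA, had negative log2 fold changes as counted. With the GC and length offsets IFIT1 had a positive one. As counted the values were -0.58 (SE 0.31) for IFIT2, -0.39 (SE 0.24) for IFIT5, -0.25 (SE 0.20) for IFIT3 and -0.21 (SE 0.17) for IFIT1. Without siCPT2 replicate 1 IFIT2 had -0.30, IFIT5 -0.19, IFIT3 -0.11 and IFIT1 -0.17. With the offsets IFIT2 had -0.37, IFIT5 -0.021, IFIT3 -0.17 and IFIT1 0.13. IFIT1 had 10.6, 11.02 and 10.3 CPM in NC and 8.57, 9.73 and 9.32 CPM in siCPT2, without overlap. IFIT2 had 14.5, 19.5 and 15.7 CPM in NC and 6.24, 15.8 and 11.3 CPM in siCPT2, where replicate 1 was lowest and replicate 2 lay within the controls. The 4 genes lie on chromosome 10 between positions 89283694 and 89421001 (GRCh38), and their transcripts have a GC content of 37.4% to 44.3%. Of all tested genes under 50% GC, 5385 of 6974 had a log2 fold change below 0 as counted.

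PARP9 and DTX3L, which form a ubiquitin ligase complex, and PARP14, an ADP-ribosyltransferase, had log2 fold changes of -0.068 (SE 0.19), -0.29 (SE 0.17) and -0.30 (SE 0.15) as counted, and 0.27, 0.0069 and 0.077 with the offsets. DTX3L had 48.6, 46.8 and 44.98 CPM in NC and 33.4, 44.5 and 36.7 CPM in siCPT2, just short of overlap. PARP9 and DTX3L share 217 exon bases on opposite strands, and summed they had -0.21 (SE 0.16). SAMD9, a cytosolic antiviral factor, had -0.46 (SE 0.36), and SP100, a component of PML nuclear bodies, -0.083 (SE 0.21), both with overlapping groups and with positive values under the offsets (0.012 and 0.18). Without siCPT2 replicate 1 they had -0.21 and 0.057. TAP1, which carries peptides into the endoplasmic reticulum for class I molecules, had 108, 95.4 and 97.6 CPM in NC and 107, 91.6 and 101 CPM in siCPT2. The groups overlapped, with a log2 difference of -0.0052 (SE 0.14, 95% interval -0.32 to 0.31). For TAP1 it was -0.067 without siCPT2 replicate 1, -0.25 with the offsets and -0.20 with both.

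The direction of the differences went with the GC content of the transcripts, as it did over all genes. Of 17 members under 50% GC, 3 had a log2 fold change above 0 (17.6%, background 22.8% of 6974 tested genes under 50%), and of 18 members at 50% or more, 14 did (77.8%, background 78.3% of 6233). STAT2, at 50.2%, lies just above that value, and MX2, at 48.8%, just below it. The class medians were -0.28 and 0.24 on the log2 scale, against -0.25 and 0.27 in all genes tested. Over the 35 genes the rank correlation of GC content with the log2 difference was 0.69 (Spearman's rho), and over 13207 tested genes 0.68. Without siCPT2 replicate 1 it was 0.54 and 0.48. These are descriptions over genes, which share the libraries and are not replicates. Transcript length ran the other way, with a rho of -0.62 over the 35 genes and -0.46 over all. What part GC content and length have in the differences was not tested. The offsets were fitted to each library's deviation from the mean of all 6 libraries. They therefore also take out a group difference that runs with GC content or length, whatever its source.

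By library, the members under 50% GC had a median log2 difference from the NC mean of -0.49, 0.038 and -0.29 in siCPT2 replicates 1, 2 and 3, and -0.11, 0.064 and -0.045 in NC replicates 1, 2 and 3. Those at 50% or more had 0.56, 0.084 and 0.33 in siCPT2 and 0.025, -0.16 and 0.065 in NC. Replicates 1 and 3 of siCPT2 thus both had the class under 50% below 0 and the other class above 0. Replicate 2 of siCPT2 had both classes above 0. NC replicates 1 and 3 had the same signs as siCPT2 replicates 1 and 3, with smaller medians, and NC replicate 2 had the reverse. All tested genes under 50% had -0.59, -0.035 and -0.19 in siCPT2, and those at 50% or more 0.48, 0.033 and 0.25. After the GC and length offsets, 11 of the 17 and 10 of the 18 genes were above 0, with medians of 0.077 and 0.041. Over all tested genes, 3309 of 6974 and 3144 of 6233 were above 0 after the offsets, with medians of -0.017 and 0.0024. STAT2 and OAS3, at 50.2% and 54.3% GC, were among the 4 members at 50% or more that lay below 0 as counted, with TAP1 and ISG20.

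**Figure D4:**
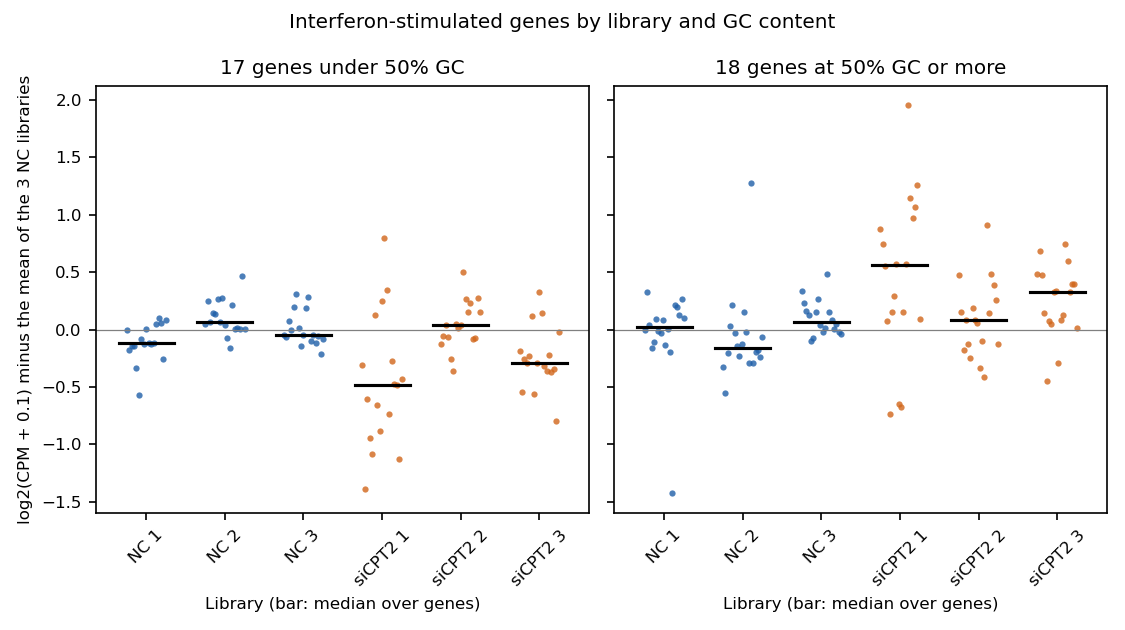
Difference of each gene from the mean of the 3 NC libraries, on log2(CPM + 0.1), by library, for the 17 genes under 50% GC and the 18 genes at 50% or more. Points are genes and black bars medians, which in siCPT2 replicate 1 are -0.49 for the first class and 0.56 for the second, and in siCPT2 replicate 2 are 0.038 and 0.084.

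**Figure D5:**
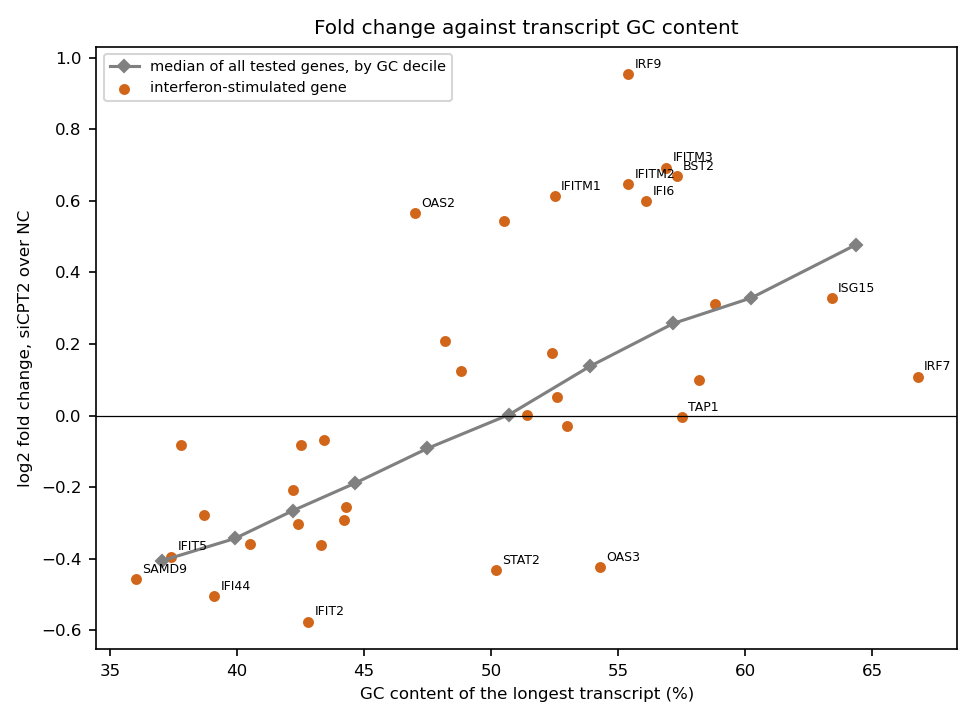
Log2 fold change (siCPT2 over NC) against the GC content of the longest transcript for the 35 genes (orange, some named), with the median of all tested genes in each GC decile (grey). The points go up with GC content along the grey line (rho 0.69), with STAT2 (-0.43) and OAS3 (-0.42) below it and IRF9 (0.95) above it.

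Of 9 interferon ligand genes, 1, IFNE, had a mean of at least 1 CPM in NC, and 7 had 0 counts in all 6 libraries, among them IFNB1, an interferon made early on RNA sensing, and the limit that 0 counts allow (3 counts) was 0.0957 to 0.118 CPM per library, for counting error only. IFNA1 had 1, 0 and 2 counts in NC and 0, 0 and 1 in siCPT2. IFNE, an interferon of epithelia, had 1.27 ± 0.826 CPM in NC and 1.42 ± 0.240 CPM in siCPT2 (SD, n = 3 each), from 29, 68 and 20 counts in NC and 37, 46 and 34 in siCPT2, with overlap.

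Receptors and JAK-STAT components were expressed, SOCS1 below 1 CPM, and 0 of 14 passed by edgeR (background 0.0131%). At an unadjusted p under 0.05, 2 were lower (background 5.29%) and 0 higher (background 9.18%). Of the 14, 2 had a log2 fold change above 0, against 50.7% of all tested genes. That share was 22.8% of tested genes under 50% GC and 78.3% of those at 50% or more, and the list holds both. Of its genes at 50% GC or more, TYK2 was above 0, and IFNLR1, IFNGR2, STAT3, SOCS1, SOCS3 and USP18 were below. The median GC content of the list was 48.7% and its median log2 fold change -0.22. IFNAR1 (-0.22, SE 0.18) and IFNAR2 (-0.22, SE 0.17), the chains of the type I receptor, JAK1 (-0.28, SE 0.17) and TYK2 (0.26, SE 0.18) had overlapping groups. With the offsets these 4 had 0.13, -0.054, -0.065 and -0.038. STAT3 (-0.33, SE 0.14) and JAK2 (-0.63, SE 0.28) had the smallest p-values of this list, and their siCPT2 libraries lay below all controls. With the offsets they had -0.24 and -0.22.

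Of 19 genes of nucleic acid sensing, 15 could be tested and 0 passed by edgeR (background 0.0131%). At an unadjusted p under 0.05, 1 was higher (background 9.18%) and 2 were lower (background 5.29%), with a median log2 fold change of -0.055. TLR7, an endosomal sensor of single-stranded RNA in immune cells, and ZBP1 had 0 counts in all libraries, while TLR8 had 2 counts in NC replicate 2 alone. TLR3, the endosomal receptor for double-stranded RNA, had 5.97 ± 1.37 CPM in NC and 4.19 ± 2.24 CPM in siCPT2, and the adaptor MAVS 82.3 ± 0.357 CPM and 90.6 ± 18.6 CPM (SD, n = 3 each). TRIM25, a ubiquitin ligase of RIG-I signalling, had a log2 fold change of -0.36 (SE 0.13), and ADAR, which edits double-stranded RNA, -0.38 (SE 0.14), and with the offsets they had -0.26 and -0.20. IRF3, which switches on IFNB1, had 0.64 (SE 0.24), and 0.32 with the offsets.

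Of 43 further interferon-stimulated genes, 30 had a mean of at least 1 CPM in NC, and 33 could be tested. By unpaired edgeR 0 passed (background 0.0131%). At an unadjusted p under 0.05, 4 of the 33 were higher (background 9.18%) and 1 was lower (background 5.29%). The median log2 fold change was -0.16, with 14 above 0 (background 50.7%) and 19 below. LGALS3BP (0.51, SE 0.16) and LY6E (0.54, SE 0.19) had the smallest p-values, and with the GC and length offsets they had 0.13 and -0.027. CMPK2, RTP4 and IRF8 had 0 counts in all libraries. RSAD2, the antiviral enzyme viperin, had 5, 4 and 0 counts in NC and 0, 2 and 0 in siCPT2, and the chemokine CXCL10 had 4, 8 and 6 counts in NC and 0, 4 and 13 in siCPT2. These last 5 were named after their values were seen.

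All 17 genes of class I antigen presentation were expressed, and 0 passed by edgeR (background 0.0131%). At an unadjusted p under 0.05, 1 was higher (background 9.18%) and 0 lower (background 5.29%). The median log2 fold change was 0.21 and the median GC content 54.8%, and 14 of the 17 were above 0, against 50.7% of all tested genes. That share was 78.3% of tested genes at 50% GC or more and 22.8% of those under 50%. The list holds both, with B2M (40.6%), TAP2 (49.1%) and PSMB9 (46.9%) among its genes under 50%. TAPBP, the peptide-loading chaperone tapasin, had 0.41 (SE 0.17), and HLA-F, a class I molecule, 0.34 (SE 0.17), and with the offsets they had 0.20 and -0.029.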

How the data were processed

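Poly(A) RNA-seq libraries of cells labelled HCT116 (NC and siCPT2, 3 each) were read from 1 table of the whole series. The authors deposited raw counts per gene and library beside FPKM, per the file headers. Columns of the same table, named for DESeq2 in the file headers, hold the authors' own p-value, log2 fold change and call. The submitters' processing notes name GRCh38 and, with no role or version, HISAT2, TopHat2, Bowtie2, StringTie, edgeR and DESeq2. Strand handling, the annotation and the lengths behind the FPKM are not stated there. After 17 lines without a gene were left out, 24154 genes remained, of which 19974 had Ensembl IDs, all in GENCODE 29 (GRCh38), from which coordinates, transcript length and GC content (longest transcript) were taken. The other 4180 were unnamed loci with 5.32% to 7.18% of a library's counts, kept in library sizes and tests.

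Counts were tested over all genes kept by filterByExpr with edgeR 4.0.16 in R 4.3.3 (TMM, quasi-likelihood F-test, Benjamini-Hochberg adjustment, threshold 0.05), after a check on simulated data. All 35 members passed that filter. Alternatives used DESeq2 1.42.0, limma 3.58.1, other scalings and filters, left-out libraries, the replicate number as a block, FPKM, and offsets from a loess (span 0.5) of each library on GC content and length. The sums of genes with shared exons and the split at 50% GC were chosen after seeing the data. One result of the pathway lists is not reported here. The members and lists were chosen with earlier results of these data known. Values for every library are given for STAT2, IRF9, IRF1, IRF7, the 8 members with the highest FPKM in NC and the 6 with the smallest p. From the other pathway lists a set of pathway genes and up to 2 with the smallest p in each were named. The library values of OAS3, IFIT1, IFIT2 and DTX3L, and the fold changes of the remaining members, were added after their values were seen.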

Additional observations from a re-analysis of the deposited data

How the results depend on the processing

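The number of interferon-stimulated genes passing an adjusted p of 0.05 was 0 in every unpaired fit, including those without a library. Whether the replicate numbers pair the libraries was not settled. Deviations of same-numbered libraries correlated at 0.25, 0.36 and 0.0065. NC replicates 1 and 2 correlated best with the siCPT2 library of the same number, and NC replicate 3 with siCPT2 replicate 1 (0.091). With the replicate number as a block, 3 members passed (BST2, IFITM2 and IFITM3), 11 had an unadjusted p under 0.05 and 4.14% and 30.6% of all genes did. With block and GC and length offsets together, 2 passed (OAS3 and STAT2), 10 had an unadjusted p under 0.05, against 4.66% and 23.2% of all genes, and the median log2 fold change was 0.072. LGALS3BP and LY6E also passed with the block alone. Leaving out a library, the number with an unadjusted p under 0.05 ranged from 2 to 16 and the median from -0.038 to 0.049. The median was 0.007 with upper-quartile factors, -0.146 on library size alone, -0.035 with a filter at a mean of 1 CPM, 0.075 with the offsets, 0.011 with the offsets and without siCPT2 replicate 1 (3 members with an unadjusted p under 0.05, against 8.66% of all genes), and -0.086 and -0.133 on log2(FPKM + 1) and log2(FPKM + 0.1). Over all genes, library size alone moved the median to -0.13. The number expressed in NC was 26 to 35 over all thresholds, and 31 or 32 without an NC library. Groups were separate in 9 members on library size alone (26.5% of all genes), 9 in FPKM (24.3%) and 6 with the offsets (19.8%), which are 25.7%, 25.7% and 17.1% of the 35. Depth limits OAS2, MX2, IFI27 and IFI44L, which had at most 42 counts in a library.

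Of the 35 log2 fold changes, 17 kept their sign in every alternative run. The other 18, none of which passed in any alternative, and 5 genes of the other lists or the target had the other sign as follows, and the cause was not tested. With the offsets, IFIT1 had 0.128, IFI35 -0.156, IFI44L 0.467, DHX58 -0.18, OASL -0.038, ISG15 -0.274, ISG20 0.008, IRF7 -0.484, EIF2AK2 0.191, PARP9 0.268, PARP14 0.077, DTX3L 0.007, SAMD9 0.012, SP100 0.179, CPT2 0.01, TYK2 -0.038, IFNAR1 0.134, LY6E -0.027 and HLA-F -0.029. With the offsets and without siCPT2 replicate 1, IFI35 had -0.141, IFI44L 0.069, DHX58 -0.069, OASL -0.12, ISG15 -0.188, ISG20 0.257, IRF7 -0.525, EIF2AK2 0.143, PARP9 0.196, SAMD9 0.011, SP100 0.168, TYK2 -0.082 and IFNAR1 0.075. With the offsets and the replicate block, IFIT1 had 0.118, IFI35 -0.16, IFI44L 0.408, DHX58 -0.182, OASL -0.044, ISG15 -0.28, IRF7 -0.467, EIF2AK2 0.187, PARP9 0.266, PARP14 0.077, DTX3L 0.008, SP100 0.183, TYK2 -0.04, IFNAR1 0.133, LY6E -0.028 and HLA-F -0.03. On library size alone, DHX58 had -0.041, OASL -0.141, MX2 -0.022, IRF1 -0.091 and IRF7 -0.051. On log2(FPKM + 1), DHX58 had -0.064, OASL -0.197, MX1 -0.086, MX2 -0.001, IRF1 -0.078 and IRF7 -0.003. On log2(FPKM + 0.1), DHX58 had -0.079, OASL -0.227, MX1 -0.131, MX2 -0.004, IRF1 -0.085 and IRF7 -0.008. OASL had -0.003 with DESeq2 and with RLE factors, -0.006 with limma-voom, -0.009 without a filter and -0.005 with the block, and TAP1 had 0.007 with upper-quartile factors. Without each library in turn, the range was -0.262 to 0.201 for ISG20, -0.067 to 0.049 for TAP1, -0.333 to 0.077 for IFI44L, -0.088 to 0.108 for OASL, -0.174 to 0.399 for IRF7, -0.02 to 0.329 for MX2, -0.013 to 0.118 for IRF1, -0.252 to 0.015 for PARP9 and -0.222 to 0.057 for SP100.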
